A study of Ovis aries with 12 samples.

Results

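Chronic stress was compared with control conditions in the ventral hippocampus of the ewe across all genes that could be tested. The comparison takes 6 of the 12 RNA sequencing libraries of the study, the 3 labelled as ventral hippocampus of stressed ewes and the 3 labelled as ventral hippocampus of control ewes. All ewes were adult Ile-de-France sheep, a French breed, with 6 ewes in each condition, and the labels name no genotype, drug or further treatment. Each library was made from an equal mix of RNA from 2 ewes, so that a group of 3 libraries stands for 6 ewes and differences among single ewes are partly evened out. The labels do not say what the chronic stress consisted of or how long it lasted. The remaining 6 libraries are the dorsal hippocampus of the same ewes, and they enter here through the shared estimate of spread and for a test of the difference between regions.

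The ventral pole of the hippocampus connects with the amygdala, the hypothalamus and the prefrontal cortex and is known for its part in anxiety and in the control of the stress axis. Cortisol, the main glucocorticoid of sheep, acts there through the mineralocorticoid receptor, which binds it with high affinity, and the glucocorticoid receptor, which is engaged as levels rise. Bound receptors move to the nucleus and switch target genes on or off, among them genes that limit the receptors' own action.

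Library totals of the ventral samples ran from 19801665 to 45404523 counts, so that 1 CPM, the count scaled to a common library total, stood for 19.8 to 45.4 counts. Of 33609 genes in the table, 17806 were tested. The label of the region was checked with 11 tested genes known from the ventral pole of the rodent hippocampus, among them NR2F2, DCN and NNAT: their mean log2 CPM lay between -0.28 and 0.33 of the ventral mean in the ventral libraries and between -1.53 and -1.19 in the dorsal ones. Hippocampal neuron markers such as NEUROD6, CAMK2A and SLC17A7, which encodes the vesicular glutamate transporter of cortical neurons, were present in all 6 ventral libraries.

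No gene was called as different between stressed and control ewes in ventral hippocampus. The quasi-likelihood test of edgeR called 0 of 17806 genes in each direction (0%) at an adjusted p under 0.05, and the smallest adjusted p was 0.9998. At an unadjusted p under 0.05 there were 142 genes (0.797%), 69 higher (0.388%) and 73 lower (0.41%) in stressed ewes. DESeq2 and limma-voom called 0 genes too. At an unadjusted p under 0.05 there were 317 of 24253 genes (1.31%) in DESeq2 and 171 of 17806 (0.96%) in limma-voom. The median log2 fold change over all genes was -0.03, and 606 genes (3.40%) had a fitted change of more than 2-fold. Every stress library lay above every control library for 245 genes (1.38%) and below for 265 genes (1.49%), together 510 genes (2.86%). The number at an unadjusted p under 0.05 was 698 without ventral control 3 and 216 without ventral control 2, with 0 genes called in both fits.

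The absence of calls does not show that stress left these genes alone, because the error of the fold changes was wide. The distance from the estimate to the end of its 95% interval had a median of 0.88 on the log2 scale. For 8100 genes (45.5%) the whole interval lay within a 2-fold change in either direction, and for the other 9706 genes it reached past a 2-fold change in at least 1 direction. The median standard error (SE) of the log2 fold change was 0.40.

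The 3 control libraries differed from each other more than the groups did. Of the variance of log2 CPM among the 6 ventral libraries, 61.9% lay within the control group, 29.0% within the stress group and 9.06% between the groups. The first principal component held 67.1% of the variance and ran from ventral control 1 at a score of -110 to ventral control 3 at 103, with ventral control 2 at -26.0. The stress libraries fell between those ends, at -1.71, -41.9 and 76.4. Ventral controls 1 and 3 were the most distant pair of the 15, with a root mean square difference of 1.63 in log2 CPM. The closest pair of all crossed the groups, ventral control 3 and ventral stress 3, at 0.532. The closest library to ventral control 2 was also a stress library, ventral stress 2 at 0.649.

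**Figure D1:**
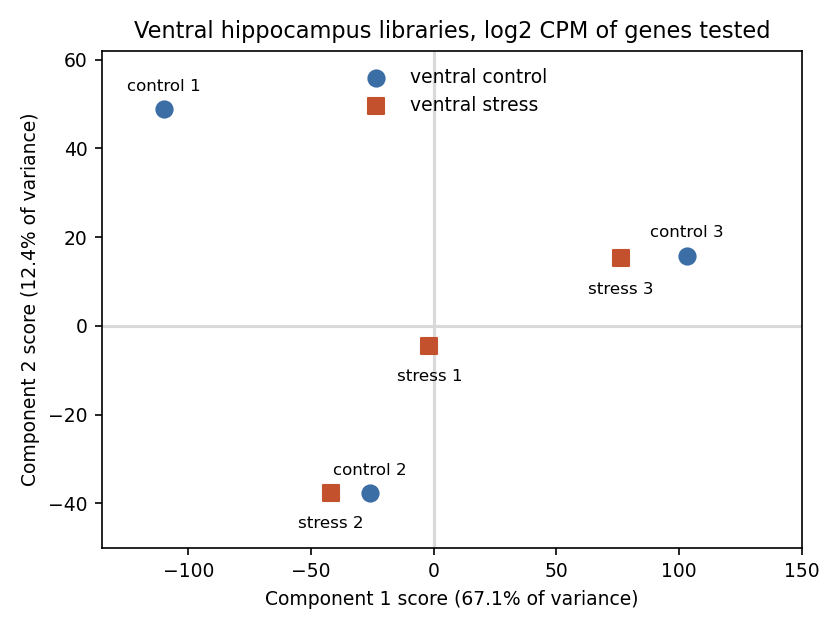
Principal component scores of the 6 ventral libraries from log2 CPM of the 17806 genes tested, with the first component (67.1% of variance) across and the second (12.4%) upward; circles are control and squares stress libraries, each a pool of 2 ewes. The control libraries take both ends of the first component, at -110 and 103, and the 3 stress libraries lie between them.

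Gene by gene the spread was larger in control than in stress libraries for 14162 of 17806 genes (79.5%). The median standard deviation (SD) of log2 CPM was 0.608 in ventral control and 0.394 in ventral stress, against 0.343 in dorsal control and 0.423 in dorsal stress. In dorsal tissue of the same ewes the control group had the larger SD for 34.9% of genes. For 9127 genes (51.3%) all 3 stress libraries lay inside the range of the controls, and for 1319 genes (7.41%) all 3 controls lay inside the range of the stress libraries. The control range was over 2-fold for 10268 genes (57.7%), against 6165 genes (34.6%) in stress. Ventral control 1 was the highest of the 6 libraries for 5794 genes and the lowest for 6167, and ventral control 3 for 5201 and 5243. Without ventral control 3 the control SD was the larger for 7847 genes (44.1%), without ventral control 1 for 11871 and without ventral control 2 for 14050. The count thus fell most without ventral control 3. These counts take the SD over fewer libraries in control than in stress, so they are not like the count over all 6 libraries.

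**Figure D2:**
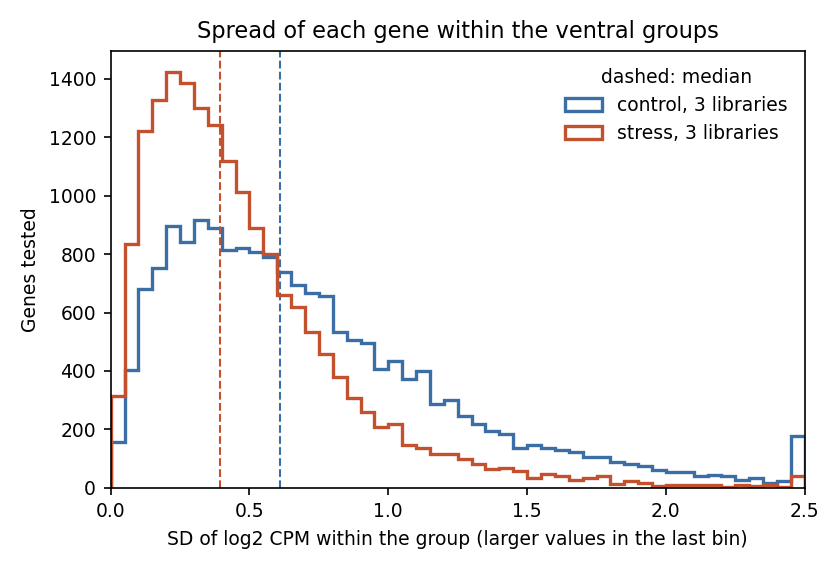
Number of genes tested (upward) by the SD of log2 CPM over the 3 control libraries and over the 3 stress libraries of ventral hippocampus (across), with dashed lines at the medians of 0.608 and 0.394. The control distribution is shifted to larger SDs.

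The genes with the widest range among the controls show what this spread looked like. They were taken as the 10 with the widest control range among genes with a symbol and a mean log2 CPM of at least 4, so their spread is a description. PCSK1N, which encodes the neuroendocrine protein proSAAS, stood at 483, 88.2 and 5.85 CPM in ventral controls 1 to 3 and at 92.5, 284 and 14.3 CPM in ventral stress 1 to 3. The peptide precursor CARTPT stood at 207, 12.5 and 3.84 CPM against 58.3, 11.1 and 16.2 CPM. ARL6IP1, an endoplasmic reticulum protein, ran the other way at 5.72, 65.1 and 196 CPM against 93.1, 59.8 and 180 CPM. In all 10 genes the stress libraries lay inside the control range, which their choice by that range favours, against 51.3% of all genes tested. The other 7 were the cytokine gene MIF, CCDC85B, the RNA polymerase subunit gene POLR2L, DGCR6L, the mitochondrial ribosomal gene MRPL41, PPP1R14A and MICALL2. Control ranges of the 10 were 29.0-fold to 81.5-fold and stress ranges 3.00-fold to 20.6-fold. The highest control was ventral control 1 for 9 of the genes and ventral control 3 for ARL6IP1.

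Whole families moved with this gradient. Cytosolic ribosomal protein genes, whose products build the ribosome, were higher in ventral control 1 than in ventral control 3 for 35 of 35 members, and 31 of them lay in the order control 1, control 2, control 3, against 5815 of 17806 genes tested in that order. Their summed level was 35427, 24919 and 12361 CPM in ventral controls 1 to 3 and 20862, 26106 and 13404 CPM in ventral stress 1 to 3. The sum also varied among dorsal libraries, at 33279, 18791 and 22081 CPM in controls 1 to 3 and 30832, 18775 and 15851 CPM in stress 1 to 3. The median log2 fold change of these genes between the ventral groups was -0.24, but 0.08 without ventral control 1 and -0.60 without ventral control 3. Among nuclear genes of the respiratory chain 18 of 19 were higher in control 1 than in control 3, with a summed level of 7278, 5239 and 2762 CPM against 4620, 5631 and 3014 CPM. Ribosomal protein genes have many processed copies, and how reads with several matches were counted is not given in the sources used here.

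Very long neuronal genes and GABA-A receptor subunits lay at the other end of the gradient. Higher in ventral control 1 than in ventral control 3 were 17 of 23 neuropeptide and 15 of 25 synaptic genes, against 8641 of 17806 genes tested. Of the 25 synaptic genes 9 lay in the order control 1, control 2, control 3 and 7 in the reverse order. Of 20 very long neuronal genes, such as the adhesion genes CNTNAP2, NRXN3 and LRP1B, 16 lay in the order control 3, control 2, control 1, against 6076 of all genes tested. CNTNAP2 stood at 105, 155 and 267 CPM in ventral controls 1 to 3 and 144, 137 and 239 CPM in ventral stress 1 to 3. GABA-A receptor subunits, which form the chloride channels of fast inhibition, lay in that order for 9 of 13 members, among them GABRB2 at 31.8, 70.0 and 249 CPM against 66.9, 80.1 and 243 CPM. For CNTNAP2 and GABRB2 ventral stress 3 sat with ventral control 3, and the groups overlapped. The labels give no RNA integrity, dissection or batch record for these libraries, and the source of the gradient was not tested. In bulk tissue, fewer cells of a type and less RNA per cell cannot be told apart.

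**Figure D3:**
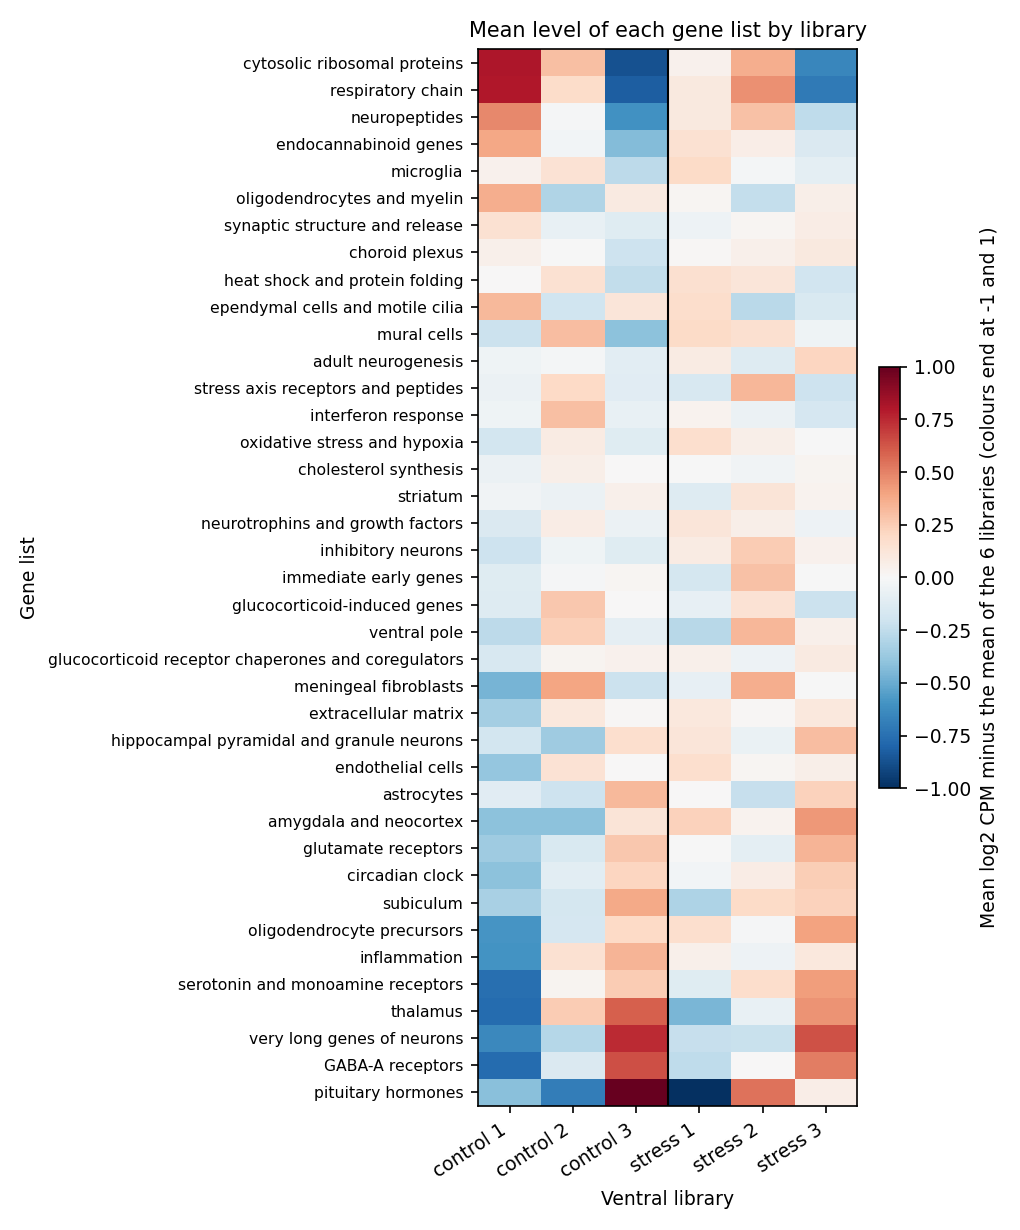
Mean log2 CPM of each gene list with at least 5 tested members (rows) in the 6 ventral libraries (columns), as the difference from the mean of the 6; red is above and blue below that mean, and a line parts control from stress libraries. Ribosomal and respiratory chain genes are high in control 1 and low in control 3 and stress 3, and GABA-A receptor and very long neuronal genes are the reverse.

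The genes with the smallest unadjusted p in each direction are given as values, since none passed the test. They were taken as 12 a side among genes with a symbol and a mean log2 CPM of at least 1. All 24 had an edgeR adjusted p of 0.9998, and 21 of them had groups that did not overlap, which their choice by p favours.

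On the side of higher levels, ARC had the smallest p of the 24. ARC is an immediate early gene whose protein acts at active synapses and in the trafficking of glutamate receptors. It stood at 1.18, 1.24 and 1.37 CPM in ventral controls 1 to 3 and at 3.87, 4.70 and 2.33 CPM in ventral stress 1 to 3. The controls lay close together and every stress library was above them. The log2 fold change was 1.52 ± 0.40 (SE, 3 libraries a side), a 2.87-fold higher fitted level with a 95% interval of 1.55 to 5.29. In dorsal tissue ARC had 2.99 ± 1.44 CPM in control and 3.26 ± 0.637 CPM in stress (SD, n = 3 each), and the groups overlapped there.

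C1QTNF3, a secreted protein related to adiponectin, stood at 8.75, 3.47 and 8.60 CPM in controls and 23.1, 13.2 and 20.7 CPM in stress libraries, with no overlap and a log2 fold change of 1.45 ± 0.46. FAM163B had 1.68, 1.09 and 1.48 CPM against 4.37, 4.03 and 2.00 CPM (1.28 ± 0.39). RASD1, a Ras-like protein first described as induced by dexamethasone, had 1.75, 2.18 and 1.29 CPM against 6.31, 6.09 and 1.70 CPM (1.43 ± 0.49). For RASD1 ventral stress 3 lay among the controls, so that the groups overlapped and the difference rested on the other 2 stress libraries.

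MYCN, a transcription factor of proliferating cells, had 8.46, 6.65 and 5.46 CPM in controls against 12.3, 9.88 and 9.15 CPM in stress libraries (0.60 ± 0.22). PNP, an enzyme of purine salvage, had 22.4, 15.3 and 19.1 CPM against 44.5, 29.2 and 23.9 CPM (0.78 ± 0.28). Neither gene had overlapping groups. The remaining members on this side were RERGL, TAF6L, RDH12, which encodes a retinol dehydrogenase, DNAAF4, ZBED1 and NHSL1, with log2 fold changes from 0.48 in NHSL1 to 0.85 in RERGL. Of the 12 genes 8 had the same sign in dorsal tissue and 4 the opposite one.

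On the side of lower levels the genes had smaller fold changes, from -0.89 to -0.45. NDRG1, which responds to hypoxia and is abundant in myelinating cells, stood at 302, 187 and 186 CPM in ventral controls 1 to 3 and at 135, 164 and 150 CPM in ventral stress 1 to 3. All stress libraries were lower, and ventral control 1 stood apart above the other 2 controls. The log2 fold change was -0.59 ± 0.20, a 1.503-fold lower fitted level. TMOD1, which caps actin filaments, had the same shape at 198, 127 and 136 CPM against 90.5, 117 and 110 CPM (-0.54 ± 0.20).

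ABCA6, a transporter of the lipid-carrying ABCA family, had 13.3, 11.6 and 9.69 CPM in controls and 8.59, 6.56 and 6.74 CPM in stress libraries (-0.66 ± 0.23). In dorsal tissue the same gene had 15.1 ± 3.26 and 9.68 ± 0.628 CPM (n = 3 each), a log2 fold change of -0.64 ± 0.23. PRSS12, the synaptic protease neurotrypsin, had 4.23, 3.13 and 4.84 CPM against 2.55, 1.23 and 2.92 CPM (-0.86 ± 0.35). DDO, which degrades D-aspartate, had 42.0, 27.4 and 37.1 CPM against 25.3, 23.4 and 26.1 CPM (-0.51 ± 0.21). None of these 3 genes had overlapping groups. The others were FBXO17, TBX3, ALG8, which adds glucose to N-glycan precursors, LGALS4, CRIP3, TTC25, a component of motile cilia, and MTMR10. All 12 had a negative log2 fold change in dorsal tissue too, from pools of the same ewes.

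**Figure D4:**
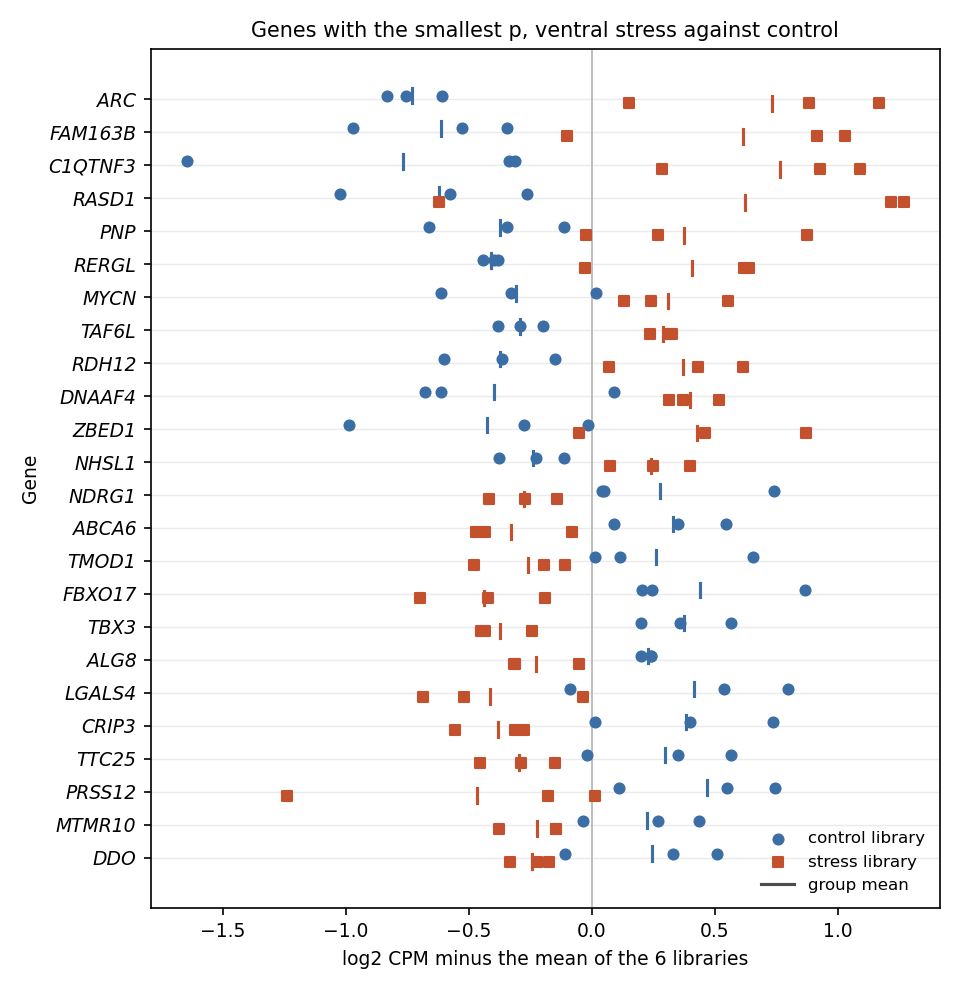
Level of the 24 genes with the smallest p in each ventral library, as log2 CPM minus the mean of the 6 libraries (across); circles are control and squares stress libraries, and bars are group means of 3. The groups overlap for RASD1, ZBED1 and LGALS4 only among these 24, and no gene passed the adjusted threshold.

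A set of 13 genes of stress signalling and plasticity was described whatever their p. All of them had overlapping groups, as had all but 2.86% of the genes tested. For 5 of them, NR3C2, TSC22D3, ADCYAP1, NTRK2 and FOS, the 95% interval lay within a 2-fold change, against 45.5% of all genes. The receptors come first. NR3C1, the glucocorticoid receptor, stood at 28.4, 41.2 and 80.5 CPM in ventral controls 1 to 3 and at 40.01, 45.8 and 76.7 CPM in ventral stress 1 to 3. The stress libraries lay inside the control range, with control 3 and stress 3 highest (log2 fold change 0.11 ± 0.42). NR3C2, the mineralocorticoid receptor, stood at 44.3, 30.5 and 49.5 CPM against 54.8, 39.8 and 60.1 CPM, with 2 of 3 stress libraries above all controls (0.32 ± 0.24, 95% interval -0.21 to 0.84).

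The 3 target genes of the receptors in this set had overlapping groups. FKBP5, a chaperone that lowers the receptor's affinity and is induced by it, stood at 19.5, 50.4 and 55.6 CPM in controls and at 27.1, 27.2 and 30.5 CPM in stress libraries. The stress libraries lay close together and below ventral controls 2 and 3, but ventral control 1 was lower than all of them (-0.56 ± 0.43). TSC22D3, which encodes the anti-inflammatory mediator GILZ, had 318, 245 and 242 CPM against 202, 248 and 229 CPM (-0.25 ± 0.17). SGK1, a kinase that regulates ion channels, had 15.98, 43.0 and 94.3 CPM against 50.8, 32.9 and 73.8 CPM (0.04 ± 0.64). For SGK1 the interval ran from -1.37 to 1.45, wide enough to hold a change of more than 2-fold either way.

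Of 27 tested genes known to be induced by glucocorticoids, 0 were called, 7 had a positive and 20 a negative log2 fold change, against 8126 positive of 17806 over all genes. The median was -0.19, and it lay between -0.27 and -0.14 when each ventral library was left out in turn. MAP3K6 was the member without overlap (3.7% of the list, against 2.86% of all genes tested). It stood at 5.84, 6.65 and 5.32 CPM in controls and 4.45, 5.26 and 3.46 CPM in stress libraries, parted by a small margin. HIF3A, an inhibitor of the hypoxia response, had 31.7, 41.7 and 63.8 CPM against 25.9, 24.4 and 35.2 CPM (-0.68 ± 0.31). Other members with lower fitted levels were ZBTB16, TXNIP, which binds thioredoxin, CEBPD and PER1, and members with higher ones were CEBPB and the phosphatase gene DUSP1. In 12 of the 27 genes the stress libraries lay inside the control range, against 51.3% of all genes tested. Receptor chaperones and coregulators had a median of 0.00, with 8 of 16 members positive.

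Peptides and receptors of the stress axis showed no call among 17 tested members (median 0.09, 9 positive, and -0.28 without ventral stress 2). CRH, the releasing hormone of the axis, stood at 7.79, 9.18 and 3.33 CPM in controls and 5.84, 13.0 and 4.89 CPM in stress libraries (0.22 ± 0.44). Its receptor CRHR1 had 6.71, 5.46 and 4.76 CPM against 5.34, 5.97 and 3.91 CPM (-0.16 ± 0.44). ADCYAP1, which encodes the peptide PACAP, had 26.9, 48.8 and 37.8 CPM against 30.9, 54.8 and 34.9 CPM (0.09 ± 0.33). In each of these the groups overlapped, and in CRH and ADCYAP1 replicate 2 was the highest library of both groups.

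Immediate early genes, which neurons switch on within minutes of activity, had 13 of 23 members with a positive log2 fold change (median 0.03). ARC and ATF3 were the 2 of 23 members without overlap, in opposite directions, where 2.86% of all genes tested had none. ATF3, a transcription factor of cell stress, had 3.34, 3.87 and 3.53 CPM in controls and 2.90, 3.32 and 2.44 CPM in stress libraries. Its highest stress library lay only just below its lowest control. FOS stood at 27.2, 52.0 and 66.5 CPM against 36.5, 58.3 and 53.6 CPM (0.03 ± 0.38), and NPAS4 at 8.004, 12.8 and 24.6 CPM against 7.08, 9.17 and 17.9 CPM (-0.41 ± 0.53). The other members, EGR1, EGR2, EGR3, NR4A1 and JUN among them, had overlapping groups.

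For plasticity, BDNF, the neurotrophin that strengthens synapses, stood at 17.5, 10.8 and 14.7 CPM in ventral controls 1 to 3 and at 30.8, 13.2 and 23.9 CPM in ventral stress 1 to 3. Ventral stress 1 and 3 were above all controls, and ventral stress 2 lay among them. The log2 fold change was 0.66 ± 0.34 (edgeR adjusted p = 0.9998), with a 95% interval of -0.09 to 1.40. Its receptor NTRK2 had 61.2, 86.6 and 191 CPM against 76.6, 100.4 and 163 CPM (0.00 ± 0.44). DCX, a marker of young neurons, had 1.59, 1.44 and 2.86 CPM against 1.24, 1.58 and 2.56 CPM (-0.13 ± 0.46). Neurotrophin and growth factor genes as a list had a median of -0.04 (6 of 14 positive) and neurogenesis genes one of 0.02 (12 of 22 positive), both near the median of all genes.

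**Figure D5:**
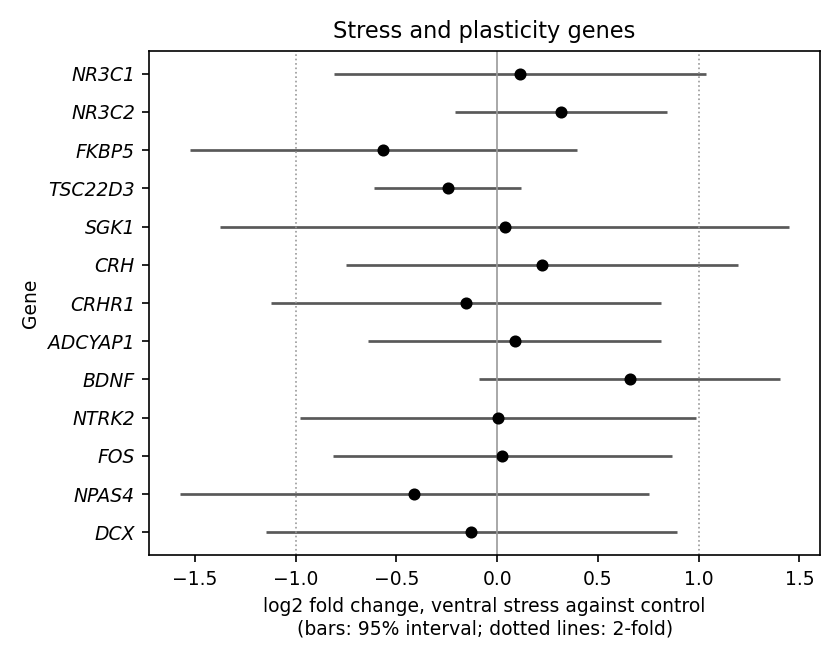
Fitted log2 fold change of ventral stress against ventral control (across) for the 13 stress and plasticity genes, with bars for the 95% interval and dotted lines at a 2-fold change either way. Every interval includes 0, and 5 of the 13 lie between the dotted lines.

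Over all 41 lists 610 different genes were tested, and 0 were called. Among them 6 were without overlap on the higher and 7 on the lower side, 13 in all (2.13%), against 2.86% of all genes tested. The higher ones were ARC, the oligodendrocyte factor OLIG2, the water channel gene AQP1, the receptor subunit gene GABRG3, LDHA, which makes lactate, and the clock gene PER2. The lower ones were GFAP, SOCS3, which dampens cytokine signalling, DDX58, which encodes the viral RNA sensor RIG-I, COL6A3, ATF3, MAP3K6 and POMC. The share among list genes was thus below that of the whole table. The medians of many lists changed sign without at least 1 of the 6 ventral libraries. Among them were the stress axis, immediate early, chaperone, neurotrophin, neurogenesis, glutamate receptor, astrocyte, microglial, inflammation and extracellular matrix lists. The ribosomal, respiratory chain, GABA-A receptor, neuropeptide, synaptic, very long gene and pituitary lists did so too, and not all such lists are named.

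Among neurons, markers of pyramidal and granule cells had a median of 0.16 (10 of 15 positive) and markers of inhibitory neurons one of 0.16 (13 of 17 positive). The inhibitory median stayed between 0.15 and 0.25 without each ventral library in turn, and that of pyramidal and granule cells was -0.01 without ventral control 2. GAD2, which makes GABA, stood at 69.5, 82.4 and 120 CPM in controls and 109, 88.2 and 136 CPM in stress libraries, with overlap. Glutamate receptor genes had a median of 0.11 (17 of 22 positive), which was -0.05 without ventral control 1. GABA-A receptor genes had one of 0.10, which was 0.73 without ventral control 3 and -0.23 without ventral control 1. GABRG3 had 0.529, 1.39 and 1.88 CPM against 2.09, 3.28 and 2.18 CPM, without overlap (0.99 ± 0.52).

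In glia, GFAP, the intermediate filament protein of astrocytes, stood at 11800, 9522 and 9802 CPM in ventral controls 1 to 3 and at 8083, 7964 and 6687 CPM in ventral stress 1 to 3. The groups did not overlap, and the log2 fold change was -0.45 ± 0.20 (edgeR adjusted p = 0.9998), a 1.37-fold lower fitted level. For the other 13 astrocyte markers the groups overlapped. The list of 14 had a median of -0.07 (0.12 without ventral control 3), with 4 members positive and 10 negative, GFAP included. Among those 13, SLC1A3 stood at 1359, 1326 and 2083 CPM against 1383, 1338 and 1895 CPM, and S100B at 2123, 2744 and 2826 CPM against 2996, 2427 and 2669 CPM.

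Myelin genes had a median of -0.24, with 5 of 16 positive, but this value depended on which controls were kept. MBP, the myelin basic protein gene, stood at 4138, 1126 and 717 CPM in controls and 1616, 1529 and 760 CPM in stress libraries, and CNP at 1087, 425 and 298 CPM against 459, 457 and 341 CPM. In both genes control 1 was far above the rest and the stress libraries lay inside the control range. Of the 16 myelin genes 9 were higher in ventral control 1 than in ventral control 3, and 7 were lower. Without ventral control 1 the median of the list was -0.02, and without ventral control 2 it was -0.42, with 0 of 16 positive. Genes of ependymal cells and motile cilia had a median of -0.20, with 3 of 19 positive, and -0.01 without ventral control 1, where FOXJ1, the master factor of motile cilia, stood at 24.2 CPM against 8.78 and 4.37 CPM in the other controls. Microglial genes had a median of -0.02 (4 of 13 positive), and it was -0.37 without ventral control 3.

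No immune response gene was called. The interferon response list had a median of -0.16, with 4 of 17 positive, and stayed between -0.29 and -0.10 without each ventral library in turn. DDX58 had 15.0, 17.3 and 13.3 CPM in controls and 11.6, 8.65 and 12.0 CPM in stress libraries. The inflammation list had a median of 0.12, with 11 of 17 positive, and -0.12 without ventral control 1. SOCS3, its member with the lowest log2 fold change, had 1.73, 5.51 and 2.16 CPM against 1.20, 1.502 and 0.417 CPM (-1.59 ± 0.66). Outside the immune lists, extracellular matrix genes had a median of 0.07, with 16 of 25 positive. COL6A3, a collagen VI chain and the member of that list with the lowest log2 fold change, had 20.3, 29.3 and 18.3 CPM against 13.8, 12.3 and 17.5 CPM (-0.64 ± 0.27). For DDX58, SOCS3 and COL6A3 every stress library was below every control library, by a small margin in COL6A3 and DDX58.

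Genes of neighbouring tissue were measured to see what else the pools held. The choroid plexus, which makes cerebrospinal fluid, expresses TTR strongly, and TTR stood at 413, 33.9 and 45.3 CPM in ventral controls 1 to 3 and at 32.5, 53.1 and 35.0 CPM in ventral stress 1 to 3, with control 1 apart. The summed level of the 14 tested choroid plexus genes was 592 CPM in ventral control 1 and between 211 and 255 CPM in the other 5 ventral libraries, against 540 to 3035 CPM in dorsal libraries. Most of the sum in ventral control 1 was TTR itself. The mean log2 CPM of the list lay 0.05 above the mean of the 6 ventral libraries in ventral control 1. In the other 5 it lay between -0.21 and 0.10 of that mean. AQP1, also a gene of that epithelium, went the other way at 0.12, 1.14 and 1.20 CPM against 7.39, 1.34 and 5.19 CPM (2.52 ± 0.93). Its level did not follow TTR across the 6 libraries, and its source was not tested.

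Pituitary hormone genes had negative log2 fold changes in 6 of 6 tested members (median -1.18), and ventral control 3 set this value. PRL, the prolactin gene, stood at 2.38, 1.04 and 73.8 CPM in ventral controls and 1.12, 11.3 and 18.9 CPM in ventral stress libraries. Without ventral control 3 the median was 0.77. The summed level of the list was 7.59 to 101 CPM in ventral controls and 4.49 to 26.7 CPM in ventral stress libraries. POMC, the precursor of corticotropin and beta-endorphin, was the member without overlap, at 4.74, 3.82 and 3.92 CPM against 1.47, 3.04 and 0.209 CPM (-1.42 ± 0.86).

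The difference between the stress effects in ventral and dorsal tissue was tested in the same fit. The edgeR test called 0 genes of 17806 (0%), with 46 (0.258%) at an unadjusted p under 0.05. DESeq2 and limma-voom also called 0, with 132 of 24253 (0.544%) and 40 of 17806 (0.225%) under 0.05. The dorsal comparison alone gave 0 calls and 152 genes (0.854%) at an unadjusted p under 0.05. The values that follow are therefore descriptions of the 5 genes a side with the smallest p, all with an adjusted p of 1.00.

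CAMK1G, a calcium-dependent kinase of neurons, stood at 80.7, 84.7 and 79.0 CPM in ventral controls and 65.6, 75.4 and 65.5 CPM in ventral stress libraries, all lower. In dorsal tissue it had 43.3 ± 1.20 CPM in control and 60.8 ± 6.48 CPM in stress (n = 3 each), so that the signs were opposite (log2 difference ventral minus dorsal -0.73 ± 0.21). FOSB had 11.2, 11.7 and 18.3 CPM against 9.64, 11.3 and 12.1 CPM in ventral tissue and 6.33 ± 0.369 against 9.02 ± 1.29 CPM in dorsal tissue (-0.83 ± 0.34). CD6, SPINK5 and MFHAS1 were the others on this side.

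On the other side, GEM, a small GTPase that inhibits calcium channels, had 1.83, 1.54 and 2.86 CPM in ventral controls and 2.82, 3.83 and 3.55 CPM in ventral stress libraries, against 1.80 ± 0.421 and 0.867 ± 0.354 CPM in dorsal control and stress (1.76 ± 0.55). RDH12 had 1.51, 1.79 and 2.07 CPM against 3.52, 2.41 and 3.10 CPM in ventral tissue and 6.35 ± 0.330 against 4.76 ± 1.17 CPM in dorsal tissue (1.17 ± 0.39). POMC, KRT13 and FBXO36 were the other genes. Beside POMC, the summed level of the 6 tested pituitary genes in dorsal tissue stood at 113 to 152 CPM in control and 5.52 to 12.3 CPM in stress libraries (POMC itself included), and the part of pituitary RNA in its difference was not tested.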

How the data were processed

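RNA was extracted with TriReagent and libraries made with a stranded, poly(A)-selecting TruSeq kit, per the labels' protocols. The authors deposited whole-number counts per gene. The submitters' processing notes name featureCounts 2.0.0, which makes such counts, the aligner TopHat2 2.1.1 with Bowtie2 2.3.5.1, and SAMtools 1.9. The build, the annotation, strandedness of counting and the handling of multiply mapped reads were not stated, so no positions are printed, and genes with near copies or antisense partners are uncertain. Placeholder names of 412 genes were replaced from a RefSeq table (ARS-UI_Ramb_v3.0), which gave names and no positions.

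The 12 libraries were fitted in R 4.3.3 with edgeR 4.0.16 (filterByExpr by group, TMM, robust quasi-likelihood, 1 mean for each of 4 groups), with Benjamini-Hochberg adjustment over 17806 genes and a call at an adjusted p under 0.05. CPM values use TMM-scaled totals, and log2 CPM a prior count of 2. The fit was tested on simulated counts drawn independently for each gene and library, so that test did not cover a gradient shared across genes. No library was a duplicate of another (chi-square per degree of freedom at least 20.2 within groups). P-values treat pools as independent, though both regions come from the same ewes.

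The groups share replicate numbers. Deviations from the group means of same-numbered ventral libraries correlated at 0.241, 0.307 and 0.787 across genes, all over 0.1, although ventral control 1 correlated at 0.548 with ventral stress 2 and the ewes of the groups differ, so the pairing is read from the data alone and not from the design.

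The genes and the 41 lists were chosen with earlier results of these data known. Named were 12 genes a side with the smallest p (mean log2 CPM at least 1), up to 3 members of each list by p, 13 set genes, 10 genes with the widest control range (mean log2 CPM at least 4) and 5 a side for the difference from dorsal tissue. Not every one of them is printed. Outside this rule, and chosen after their values were seen, are ATF3, CEBPD, CNTNAP2, DUSP1, GABRB2, MAP3K6, MBP, PRL, S100B, SLC1A3 and TXNIP, and genes named without values as examples of a list. Alternatives were RLE and upper quartile factors, other filters, DESeq2 1.42.0, limma 3.58.1 (voom, with and without sample weights), a replicate block, the first residual component as a covariate, the 6 ventral libraries alone and each library left out.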

Additional observations from a re-analysis of the deposited data

How the results depend on the processing

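The number of called genes was 0 in each fit, for stress in ventral tissue and for the difference from dorsal tissue. The smallest adjusted p of any fit of the ventral comparison was 0.137, in DESeq2. It was 0.157 in edgeR with the first residual component as a covariate, where 2134 genes (12%) had an unadjusted p under 0.05. In limma-voom with sample weights it was 0.190, and 1866 genes (10.5%) had an unadjusted p under 0.05. Those weights were 0.252 and 0.172 for ventral controls 1 and 3 and 4.09 for ventral control 2, so that fit leans on 1 control pool. The replicate block, which counts as pairing here, gave 0 calls, 268 genes at an unadjusted p under 0.05 over all libraries and 330 as a block within region; the latter was chosen after seeing the data, as were the fit without ventral controls 1 and 3 together (313) and leaving out libraries in the count of genes without overlap. Without a filter the count was 270, and with the 6 ventral libraries only it was 62. Leaving out each library gave 102 to 698. Genes without overlap numbered 978 to 4440 against 510 when a ventral library was left out, since fewer libraries have to be ordered, with 4440 without ventral control 3. Genes with the larger SD in control numbered 7847 to 14843. Of 167 named genes 101 kept their sign in all fits and 66 did not, among them NR3C1, SGK1, CRH, NTRK2, DCX, ADCYAP1, FOS and NPAS4; 3997 of 4165 values kept their sign. All 24 genes with the smallest p kept theirs. Depth limits genes of low level most, since 1 CPM rests on 19.8 to 45.4 counts in the ventral libraries.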

Other observations

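Genes that the table lists only by a placeholder name were outside the naming rule, and the following were chosen after their values were seen. LOC114116170, a protein-coding gene in the RefSeq table, stood at 0.817, 22.8 and 21.98 CPM in ventral controls 1 to 3 and at 0.426, 0.237 and 1.64 CPM in ventral stress 1 to 3. In dorsal libraries of the same ewes it stood at 13.8, 8.34 and 15.9 CPM in control and 0.149, 0.608 and 1.31 CPM in stress. LOC114118454 stood at 2.452, 1.79 and 1.71 CPM in ventral controls and 2.36, 43.2 and 38.6 CPM in ventral stress, and at 2.24, 2.90 and 2.31 CPM against 42.9, 2.64 and 32.4 CPM in the dorsal groups. For LOC114116170 ventral control 1 was low beside ventral controls 2 and 3, while its dorsal groups did not overlap. For LOC114118454 ventral stress 1 and dorsal stress 2 were low beside the rest of their groups. Both genes had an edgeR adjusted p of 0.9998 in ventral tissue. LOC105605978 stood at 0.769, 1.29 and 1.23 CPM in ventral controls against 4.57, 3.52 and 3.52 CPM in ventral stress, without overlap, and LOC114112438 at 48.5, 70.6 and 38.5 CPM against 29.6, 23.2 and 22.1 CPM. The names give no function for these genes.

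With the first residual component as a covariate, the genes with the smallest p on the higher side included LRP12 (log2 fold change 0.62 ± 0.10), KCND2, a potassium channel subunit (0.69 ± 0.12), and SLC25A36 (0.51 ± 0.09), and on the lower side MRPL27 (-0.72 ± 0.12), RAMP3 (-0.65 ± 0.12) and RPS12 (-0.41 ± 0.08), each with an edgeR adjusted p of 0.157 or above. That covariate was computed from these libraries, and none of the genes was called.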
